A study of Mus musculus with 6 samples.

Results

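The 8 genes described here are the transcription factor Nrf2 (gene symbol Nfe2l2), its repressor Keap1 and 6 textbook Nrf2 targets, Gclc, Gclm, Txnrd1, Srxn1, Nqo1 and Hmox1, in sorted mouse lung fibroblasts and whole lung. They were chosen by name, as the probes whose transcript accession maps to 1 of the 8 symbols in a RefSeq gene table, and not by their signal. They are 8 of 22907 genes and 9 of 56605 probes on the array, with 1 probe each except for Txnrd1, which has 2. All 9 probes were well above background on all 6 arrays, so none was lost to a filter on dim probes.

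The samples, of 3 kinds, were measured on 1-colour Agilent arrays, with 2 arrays in each group. Myofibroblasts, which contract and lay down matrix after injury, were sorted from lungs of male mice treated with bleomycin, an agent that causes lung fibrosis. Their gate was CD49e+ Sca1- Lin-, that is positive for integrin alpha 5 and negative for Sca1 and for lineage markers. Steady-state fibroblasts were sorted from lungs of untreated male mice as CD140a+ Lin- cells, CD140a being the receptor encoded by Pdgfra. Homogenates of whole lung from untreated male mice were the unsorted samples. A set of sorted cells held 50000 cells, and 5.8 ng of RNA was labelled. Strain, age, and the dose and time of bleomycin are not given in the sources used here. The myofibroblasts differed from the steady-state fibroblasts in both gate and bleomycin treatment, so the effects of gate and drug cannot be told apart. The labels do not say whether the 2 samples of a group are from different animals. The p-values therefore reflect only how much these samples vary, and that variation may be technical.

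Nrf2 is a basic leucine zipper factor that is made continuously and kept scarce by Keap1, an adaptor of a cullin ubiquitin ligase that marks it for degradation. Oxidants and electrophiles modify cysteines of Keap1, whereupon Nrf2 accumulates, pairs with a small Maf protein and binds antioxidant response elements in the promoters and enhancers of its targets. Its activity is thus set largely at the protein level, which an array of transcripts does not measure. In the lung the pathway is known for protection against oxidant injury, and mice that lack Nrf2 are more sensitive to bleomycin.

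The core of the antioxidant response element is usually written TGACNNNGC. It was searched for on both strands in a RefSeq promoter table of build GRCm38.p6, which gives 250 bases before and 50 after each start site. The table holds 8 windows for 6 of the 8 genes, 3 of them for Txnrd1, and none for Hmox1 or Gclc. The core occurred in 4 of these 8 windows, in Nfe2l2, Srxn1, Gclm and Txnrd1, against 12.4% of all 32851 windows in the table. The looser pattern TGANNNNGC, which includes every match of the first, occurred in windows of 5 of the 6 genes, with Keap1 added, and in 41.3% of all windows. A match describes letters in the window and is not evidence of binding. The following stretches are shown because they match the core pattern of the element by which the pathway is defined. Matched bases are in capitals, and the reading is along the gene's own strand.
Nfe2l2, chr2:75704870-75704913, minus strand, matched as read, 240 bases before the start: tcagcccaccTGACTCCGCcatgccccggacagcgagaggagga
Srxn1, chr2:152105527-152105573, plus strand, matched on the opposite strand, 29 bases after the start: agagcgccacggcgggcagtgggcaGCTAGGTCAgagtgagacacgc
Gclm, chr3:122245398-122245456, plus strand, matched on the opposite strand, 134 bases before the start: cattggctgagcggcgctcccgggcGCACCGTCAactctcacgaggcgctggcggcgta
Txnrd1, chr10:82859089-82859147, plus strand, matched on the opposite strand, 92 bases before the start: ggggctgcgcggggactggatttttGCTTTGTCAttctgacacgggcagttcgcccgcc

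Signals are given as relative signal, the processed intensity of a probe divided by the 75th percentile of its array, so that a value of 1 is the level below which 75% of the array's probes lie. Levels of different probes are not comparable on this scale. Differences are in log2 units with limma's standard error (SE). A gene was called at a Benjamini-Hochberg adjusted p under 0.05 over all genes tested in the comparison. The labels were checked on 5 fibroblast markers, whose summed relative signal, used only to compare samples, was 865 and 895 in myofibroblasts, 463 and 349 in steady-state fibroblasts, and 35.2 and 32.4 in homogenates. Between the sorted groups Col1a1 and Col1a2, which carry the sum, were called higher in myofibroblasts, while Dcn and Pdgfra were called lower. The sum of 5 myofibroblast markers was 340 and 376 in myofibroblasts, 18.6 and 28.9 in steady-state fibroblasts, and 36.04 and 37.3 in homogenates. The arrays of the groups differed in how well they repeated. The 2 fibroblast arrays were more than 2-fold apart for 23.2% of 13998 genes, while this held for 6.95% of genes between the myofibroblast arrays and for 1.75% between the homogenate arrays. The SE may thus be too small between the sorted groups and too large for myofibroblasts against homogenates. With only the 4 arrays compared in the fit, 7.90% of genes were called between the sorted groups. For myofibroblasts against homogenates 43.0% were called in such a fit. All arrays shared 1 slide and 1 scan day. The sorted samples and the homogenates lay in different rows of the slide, so the row cannot be told apart from the contrast with homogenate.

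Between myofibroblasts and steady-state fibroblasts, the pathway did not move as a block. Hmox1 was 3.82-fold higher in myofibroblasts and was the 1 member of 8 that was called, where 17.2% of all 16005 tested genes were called, 9.22% higher and 8.02% lower. The other members had differences of either sign, between -1.06 for Nfe2l2 and 1.30 for Keap1. The median of the 8 was -0.06, beside -0.06 over all tested genes. The 2 groups of arrays did not overlap for 4 of the 8 members, Nfe2l2, Keap1, Txnrd1 and Hmox1, beside 63.1% of all tested genes. Of the 4 genes with a match to the element core in their promoter window, none was called, and their differences lay between -1.06 and 0.61. Keap1 and Nqo1, whose windows lack the core, were not called either. Hmox1, the 1 called member, had no window, so these calls cannot relate the element to the differences.

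**Figure D1:**
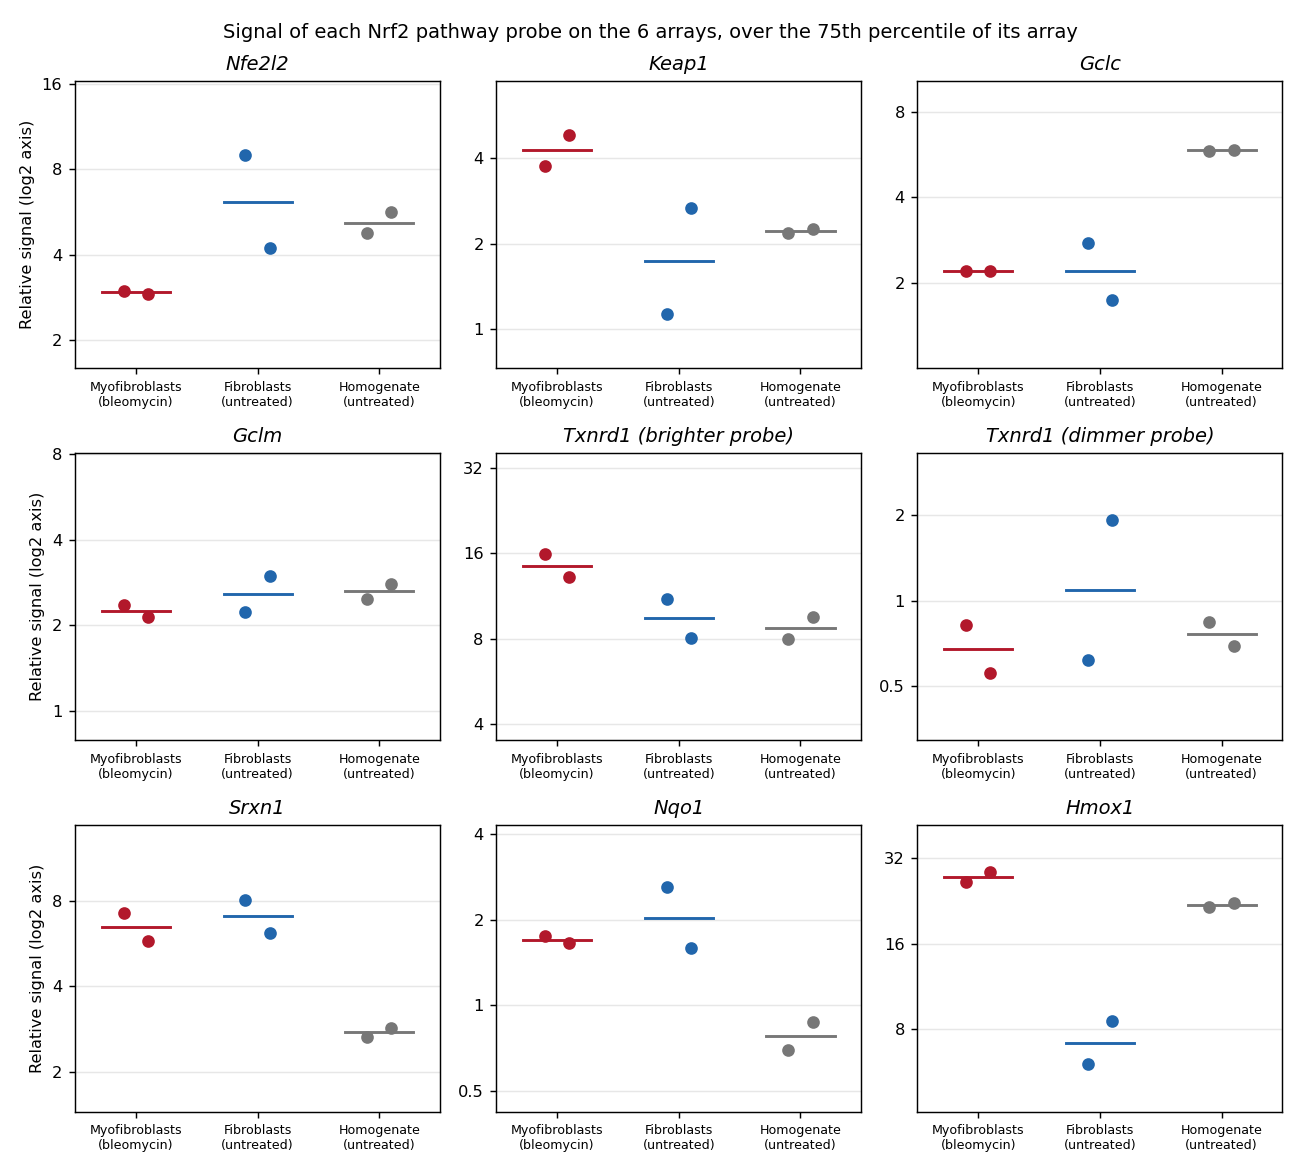
Relative signal of each of the 9 probes (log2 axis, array 75th percentile = 1) in myofibroblasts, steady-state fibroblasts and lung homogenates. Points are single arrays, 2 in each group, and lines are the means of the log2 values. Hmox1 lies at 26.3 and 28.5 in myofibroblasts, against 6.03 and 8.54 in steady-state fibroblasts, and the 2 fibroblast points stand far apart for Nfe2l2, Keap1 and the dimmer Txnrd1 probe.

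The regulators come first. Nfe2l2, which encodes Nrf2 itself, had relative signals of 2.98 and 2.92 in myofibroblasts, 8.93 and 4.21 in steady-state fibroblasts, and 4.76 and 5.63 in homogenates. Both myofibroblast arrays lay below all 4 others, while the fibroblast arrays, 2.12-fold apart, straddled the homogenates. The difference between myofibroblasts and steady-state fibroblasts was -1.06 ± 0.40 (SE, n = 2 each; 95% interval -2.06 to -0.05), with a limma adjusted p of 0.125. Keap1, which encodes the adaptor that holds Nrf2 down, gave 3.77 and 4.85 in myofibroblasts, 1.13 and 2.68 in steady-state fibroblasts, and 2.18 and 2.25 in homogenates. Here the myofibroblast arrays lay above all others, and the fibroblast arrays again lay on either side of the homogenates, 2.37-fold apart. Its difference between the sorted groups was 1.30 ± 0.45 (95% interval 0.17 to 2.42), with an adjusted p of 0.102. Neither regulator was called. Both had an unadjusted p under 0.05, as did 36.4% of all tested genes. Whether either passed depended on the second fibroblast array: without it the differences were -1.60 for Nfe2l2 and 1.92 for Keap1, with adjusted p of 0.0138 and 0.0126, in a fit that called 34.3% of all genes, and without the first fibroblast array the adjusted p were 0.171 and 0.137. With the authors' scaling Nfe2l2 had a difference of -1.47 and an adjusted p of 0.0492, and Keap1 an adjusted p of 0.182.

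Gclc and Gclm encode the catalytic and the modifier subunit of glutamate-cysteine ligase, which makes the rate-limiting step of glutathione synthesis. Gclc had relative signals of 2.21 and 2.20 in myofibroblasts, 2.76 and 1.74 in steady-state fibroblasts, and 5.80 and 5.88 in homogenates. The sorted groups overlapped and both lay below the homogenates. Their difference was 0.01 ± 0.30 (95% interval -0.75 to 0.76, adjusted p = 0.991), an interval that still allows a change of over 1.5-fold in either direction. Gclm gave 2.35 and 2.14 in myofibroblasts, 2.23 and 2.98 in steady-state fibroblasts, and 2.47 and 2.80 in homogenates. It had the narrowest range of the members, with group means within 0.23 log2 units of each other. Its difference between the sorted groups was -0.20 ± 0.27 (95% interval -0.87 to 0.47, adjusted p = 0.620).

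Txnrd1 and Srxn1 serve the thioredoxin and peroxiredoxin system. Txnrd1, the cytosolic thioredoxin reductase that uses NADPH to recharge thioredoxin, had relative signals at its brighter probe of 15.9 and 13.2 in myofibroblasts, 11.1 and 8.09 in steady-state fibroblasts, and 8.03 and 9.57 in homogenates. The myofibroblast arrays were the highest, but the difference from steady-state fibroblasts, 0.61 ± 0.29 (95% interval -0.10 to 1.33), was not called (adjusted p = 0.185). The dimmer Txnrd1 probe did not repeat that order. It gave 0.819 and 0.556 in myofibroblasts, 0.619 and 1.93 in steady-state fibroblasts, and 0.841 and 0.691 in homogenates, with a difference of -0.70 ± 0.58 between the sorted groups (adjusted p = 0.421 over all probes). Its 2 fibroblast arrays were 3.12-fold apart, the widest gap of any member probe, and the mean of both Txnrd1 probes gave a difference of -0.04. Srxn1, the sulfiredoxin that repairs over-oxidised peroxiredoxins, had signals of 7.24 and 5.79 in myofibroblasts, 8.06 and 6.18 in steady-state fibroblasts, and 2.66 and 2.86 in homogenates. Both sorted groups lay above the homogenates and overlapped each other, with a difference of -0.12 ± 0.27 (95% interval -0.81 to 0.56, adjusted p = 0.770).

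The 2 remaining targets behaved differently from each other. Nqo1, a quinone reductase, gave relative signals of 1.76 and 1.65 in myofibroblasts, 2.62 and 1.59 in steady-state fibroblasts, and 0.699 and 0.871 in homogenates. The sorted groups overlapped, and their difference was -0.26 ± 0.33 (95% interval -1.08 to 0.56, adjusted p = 0.605). Hmox1, the inducible heme oxygenase that breaks heme into biliverdin, iron and carbon monoxide, gave 26.3 and 28.5 in myofibroblasts, 6.03 and 8.54 in steady-state fibroblasts, and 21.6 and 22.3 in homogenates. Its fibroblast arrays stood far below all others. The difference between myofibroblasts and steady-state fibroblasts was 1.93 ± 0.28 (95% interval 1.25 to 2.62), with an adjusted p of 0.0117. Without the first or the second myofibroblast array the adjusted p was 0.0542 or 0.0658, and the difference stayed positive under every alternative run.

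Heme oxygenase is also abundant in macrophages, so macrophage and leukocyte markers were set beside Hmox1. The summed relative signal of all 12 markers was 185 and 178 in myofibroblasts, 193 and 176 in steady-state fibroblasts, and 535 and 551 in homogenates. Itgam and Csf1r made up most of the sum in the sorted cells. Without these 2, a choice made after their values were seen, the sum was 2.08 and 4.56 in myofibroblasts, 1.36 and 0.983 in steady-state fibroblasts, and 378 and 387 in homogenates. Between the sorted groups 3 of 8 tested markers were called higher in myofibroblasts and 0 lower, beside 9.22% and 8.02% of all tested genes. The median difference was 0.70. Tyrobp, Chil3 and Lyz2 were tested only because they were well above background in myofibroblasts. Their direction was thus set by that filter, and the count and median rest partly on it. The called markers were Tyrobp, at least 9.07-fold higher, Chil3, at least 13.7-fold higher, and Marco, 8.41-fold higher. These 3 moved in the same direction as Hmox1. Lyz2 was also higher, without a call. The other tested markers had slightly lower mean log2 signals in myofibroblasts than in steady-state fibroblasts. These were -0.54 against -0.39 for Cd68, -2.91 against -2.81 for Cd14, 4.31 against 4.42 for Csf1r, and 7.31 against 7.33 for Itgam. In myofibroblasts 8 of 12 were above background on both arrays, with Adgre1, Itgax and Mrc1 above it on neither. In steady-state fibroblasts 5 of 12 were, with Ptprc, Itgax, Lyz2, Mrc1, Tyrobp and Chil3 above it on neither, and in homogenates all 12 were. The part of such cells in the Hmox1 difference was not tested.

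**Figure D2:**
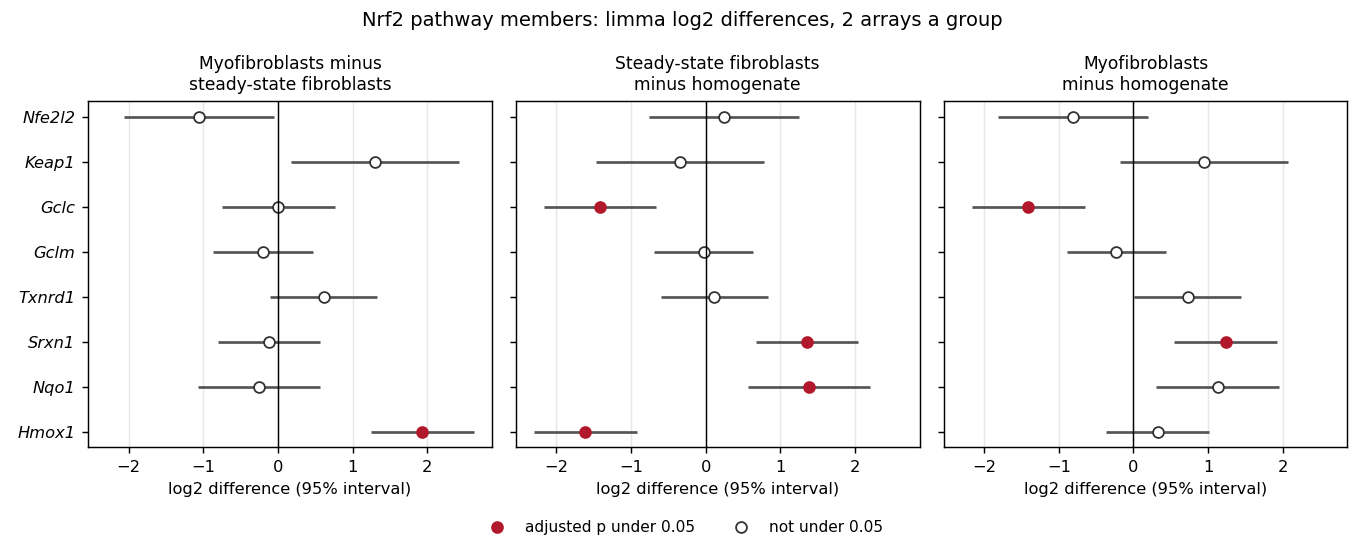
Log2 difference of each of the 8 members with its 95% interval in the 3 comparisons. These are myofibroblasts minus steady-state fibroblasts, steady-state fibroblasts minus homogenates and myofibroblasts minus homogenates. Txnrd1 is shown at its brighter probe only. Filled red points have an adjusted p under 0.05. Hmox1 is the only such point in the first panel, at 1.93, while Gclc lies at -1.41 and Srxn1 above 1 in both panels against homogenates.

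Against whole lung, the steady-state fibroblasts had more Srxn1 and Nqo1 transcript and less Hmox1 and Gclc transcript, per unit of array signal. These 4 of 8 members were called, 2 in each direction, where 19.9% of 17062 tested genes were called, 8.09% higher and 11.8% lower. The groups of arrays did not overlap for the same 4 genes, beside 62.8% of all tested genes. In such bulk samples fewer cells of a type and less RNA per cell cannot be told apart. Srxn1 differed by 1.36 ± 0.27 (adjusted p = 0.0223) and Nqo1 by 1.38 ± 0.33 (adjusted p = 0.0376). In the fit over all probes Nqo1 was not called (adjusted p = 0.0519). Hmox1 differed by -1.61 ± 0.28 (adjusted p = 0.0126) and Gclc by -1.41 ± 0.30 (adjusted p = 0.0265). The other 4 members had small differences and wide intervals, with Keap1 at -0.35, Nfe2l2 at 0.24, Txnrd1 at 0.11 and Gclm at -0.03, each with an adjusted p of 0.645 or more. Leaving out the first or the second homogenate array ended all 4 calls, with adjusted p of 0.0974 or 0.107 for Hmox1, 0.156 or 0.167 for Gclc, 0.162 or 0.14 for Srxn1 and 0.225 or 0.145 for Nqo1. Leaving out the first or the second myofibroblast array, which enter only through the shared spread, ended the calls of Gclc (0.0583 or 0.0581) and Nqo1 (0.0757 or 0.0753), and leaving out the first fibroblast array ended that of Nqo1 (0.0591).

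Myofibroblasts, set against the same homogenate arrays, had less Gclc and more Srxn1. These 2 of 8 members were called, against 26.9% of 17162 tested genes, 11.9% higher and 15% lower. Gclc differed by -1.41 ± 0.30 (adjusted p = 0.0231) and Srxn1 by 1.23 ± 0.27 (adjusted p = 0.0258). Nqo1 was close to the threshold at 1.13 ± 0.33 (adjusted p = 0.0555). It passed in 7 of the 16 alternatives. Without the first or the second fibroblast array, which enter only through the shared spread, 3 more members passed, in fits that called 42.0% and 41.9% of all genes, with adjusted p of 0.0183 or 0.0187 for Nqo1, 0.0294 or 0.0299 for Keap1 and 0.0306 or 0.0312 for Nfe2l2. Hmox1, at 0.32 ± 0.28, was not called (adjusted p = 0.420), and its sign turned with the authors' scaling and with quantile normalization. For the rest, Keap1 lay at 0.95, Txnrd1 at 0.73, Gclm at -0.23 and Nfe2l2 at -0.81, with adjusted p between 0.116 and 0.557. None of the 8 members' arrays overlapped between these groups, beside 77.5% of all tested genes that did not. The median of the 8 was 0.52, beside -0.01 over all tested genes. Leaving out the first or the second myofibroblast array ended the calls of Gclc (0.0888 or 0.0997) and Srxn1 (0.111 or 0.0704), and leaving out the first or the second homogenate array did so too (0.136 or 0.145 for Gclc, 0.168 or 0.148 for Srxn1).

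For the 3 members with the widest range of group means, the genes with the most similar profile over the 6 arrays were sought among 12951 named genes above background on every array. Likeness was the root mean square difference of log2 values after centring each gene. Nearest to Hmox1, whose group means spanned 1.93 log2 units, were Cib1 (0.12), which encodes a calcium- and integrin-binding protein, and Tnfrsf22 (0.13), a decoy receptor of the tumour necrosis factor family. Cib1 had relative signals of 0.672 and 0.888 in myofibroblasts, 0.171 and 0.246 in steady-state fibroblasts, and 0.531 and 0.575 in homogenates. Nearest to Gclc, with a span of 1.41, were Slx (0.10), which belongs to a family of near-identical copies whose signal a probe may not separate, Riox1 (0.12), a ribosomal oxygenase, and Ffar3 (0.13), a receptor for short-chain fatty acids. Riox1 gave 1.10 and 1.26 in myofibroblasts, 1.46 and 1.06 in steady-state fibroblasts, and 2.77 and 2.93 in homogenates. The profiles nearest to Nqo1, with a span of 1.38, were those of Rpl22l1 (0.10), a ribosomal protein paralogue, Rcn2 (0.10), a calcium-binding protein of the endoplasmic reticulum, and Serpinb6a (0.11), a serine protease inhibitor. No other member stood among the 3 nearest of any of these genes.

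The wider pathway was followed in 8 lists of 114 related genes, of which 113 had a probe and 106 were tested between the sorted groups. In myofibroblasts 11 of these were higher and 12 lower, 21.7% of those tested, beside 17.2% of all genes. The median difference over the lists was -0.12. The counts depended on single arrays, as did those of all genes. Without the second fibroblast array 44 list genes and 34.3% of all genes were called. Without the second myofibroblast array or either homogenate array 7 list genes were called, and between 6.35% and 6.45% of all genes, and without the first myofibroblast array 8 and 7.25%.

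**Figure D3:**
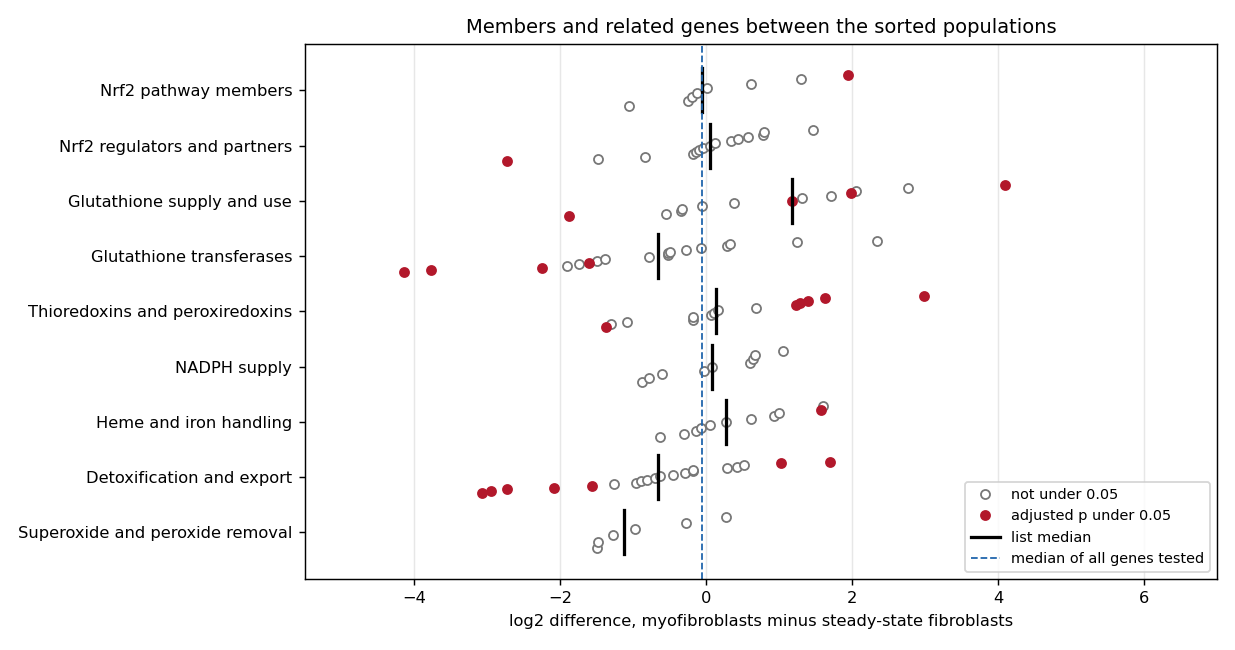
Log2 difference between myofibroblasts and steady-state fibroblasts for the 8 members and for the tested genes of 8 related lists. Points are genes, bars are list medians, filled points have an adjusted p under 0.05 and the dashed line is the median of all tested genes at -0.06. Glutathione supply and use has the highest list median, at 1.17, and superoxide and peroxide removal the lowest, at -1.13.

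Of all genes tested between the sorted groups, 9.22% were called higher and 8.02% lower in myofibroblasts, which is the background for each list. Among 15 regulators and partners of Nrf2, 0 were higher and 1 was lower in myofibroblasts. That gene was Nfe2l3, a factor related to Nrf2, with relative signals of 0.167 and 0.228 in myofibroblasts and 1.27 and 1.31 in steady-state fibroblasts. It fell by 2.73 on the log2 scale (SE 0.27, adjusted p = 0.00457) at its brighter probe, but a second probe differed by only -0.04 (adjusted p = 0.912 over all probes). In the glutathione supply and use list, 3 of 13 tested genes were higher and 1 lower, beside 9.22% and 8.02% of all tested genes. Chac1, which degrades glutathione, was at least 3.60-fold higher in myofibroblasts (adjusted p = 0.00178), since it was not well above background on either fibroblast array. It was tested only because it was well above background in myofibroblasts, so its direction was set by that filter. Gss, glutathione synthetase, the enzyme that follows glutamate-cysteine ligase, had 4.996 and 9.27 in myofibroblasts and 1.81 and 1.63 in steady-state fibroblasts. It rose by 1.99 ± 0.36 (adjusted p = 0.0220), and its second probe rose by 1.59 (adjusted p = 0.0225 in the fit over all probes, in which 16.1% were called). Ggt1, which cleaves extracellular glutathione, fell by 1.88 ± 0.47 (adjusted p = 0.0490) and was above background on 1 of the 2 myofibroblast arrays. Ggt1 was tested only through the fibroblast arrays, so its direction rests largely on the filter. The counts and median of this list thus rest partly on the filter.

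The glutathione transferases, which join glutathione to electrophiles, had 0 of 18 tested genes higher and 4 lower in myofibroblasts, with a median of -0.66. Of all tested genes 9.22% were higher and 8.02% lower. Gsta3 gave 3.91 and 4.40 in myofibroblasts, 78.7 and 68.2 in steady-state fibroblasts, and 35.6 and 31.9 in homogenates. It fell by 4.14 ± 0.25 (adjusted p = 0.00132) at one probe and by 4.22 (adjusted p = 0.00294) at the other. Gstm3 gave 0.641 and 1.33 in myofibroblasts and 12.2 and 13.0 in steady-state fibroblasts, and fell by 3.77 ± 0.39 (adjusted p = 0.00491). Members of this family are close in sequence, and a probe may read more than 1 of them. The summed relative signal of airway epithelial markers, which mark another cell type rich in these enzymes, moved the same way between the sorted groups. It was 13.5 and 18.9 in myofibroblasts, 125 and 74.95 in steady-state fibroblasts, and 703 and 693 in homogenates. Scgb1a1 made up most of it, with 10.4 and 15.9 in myofibroblasts and 118 and 69.0 in steady-state fibroblasts. Scgb3a2 and Cyp2f2 were lower in myofibroblasts too. Bpifa1 was not, with 1.46 and 1.33 in myofibroblasts and 1.18 and 1.37 in steady-state fibroblasts. Of the 5 markers, 3 were above background on both myofibroblast arrays and 4 on both fibroblast arrays, and Foxj1 was above it on none of these. Between steady-state fibroblasts and homogenates, Gsta3 differed by 1.12 ± 0.25 (adjusted p = 0.0291). The part of airway cells in these differences was not tested.

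Detoxification and export genes had 2 of 20 higher and 5 lower, beside 9.22% and 8.02% of all tested genes. The aldo-keto reductase Akr1b8 rose by 1.69 ± 0.30 (adjusted p = 0.0201), with 8.10 and 9.82 in myofibroblasts, 3.28 and 2.34 in steady-state fibroblasts, and 0.756 and 0.618 in homogenates, so that no 2 groups overlapped. A related reductase, Akr1a1, rose by 1.03 ± 0.25 (adjusted p = 0.0475). The aldehyde oxidase Aox1 fell by 2.96 ± 0.45 (adjusted p = 0.0143), with 0.455 and 0.575 in myofibroblasts and 6.12 and 2.57 in steady-state fibroblasts. Ugt1a6a, a glucuronosyltransferase whose gene shares exons with its neighbours, was at least 2.99-fold lower in myofibroblasts (adjusted p = 0.0235), where it was not well above background on either array. It was tested only because it was well above background in steady-state fibroblasts. Its direction was thus set by that filter, and the count of lower genes rests partly on it.

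In the thioredoxin and peroxiredoxin list, 5 of 14 genes were higher and 1 lower, beside 9.22% and 8.02% of all tested genes. Prdx5, a peroxiredoxin of mitochondria, peroxisomes and cytosol, gave 30.3 and 31.8 in myofibroblasts and 1.81 and 8.48 in steady-state fibroblasts, and rose by 2.99 ± 0.71 (adjusted p = 0.0428). Prdx2, a cytosolic peroxiredoxin, rose by 1.63 ± 0.32 (adjusted p = 0.0264), and its second probe differed by 3.30 without being called (adjusted p = 0.105 over all probes). Sesn1, a sestrin, fell by 1.37 ± 0.34 (adjusted p = 0.0488). In heme and iron handling 1 of 11 genes was higher and 0 were lower. This was Tfrc, the transferrin receptor, which rose by 1.57 ± 0.33 (adjusted p = 0.0327) at its brightest probe. The mean of all its probes differed by only 0.038 (adjusted p = 0.980), and with the authors' scaling the difference was 1.16 (adjusted p = 0.0592). The brightest Tfrc probe gave 0.907 and 0.637 in myofibroblasts, 0.318 and 0.205 in steady-state fibroblasts, and 1.71 and 1.61 in homogenates. Markers of cycling cells, in which Tfrc is usually high, differed in the same direction as this probe between the sorted groups. Only the place of the homogenates differed, above all sorted arrays for Tfrc but between the sorted groups for the cycling markers. These markers summed to 11.7 and 10.7 in myofibroblasts, 0.378 and 0.238 in steady-state fibroblasts, and 2.10 and 2.05 in homogenates. Their part in the list differences was not tested.

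Of 9 genes of NADPH supply and 6 of superoxide and peroxide removal, none was called between the sorted groups, beside 17.2% of all genes. The most changed were Pgls, a pentose phosphate enzyme, at 1.05 ± 0.44 (adjusted p = 0.152), and Sod3, the extracellular superoxide dismutase, at -1.50 ± 0.38 (adjusted p = 0.0508). Pgls passed in 2 of 16 alternatives, without the first fibroblast array (1.61, adjusted p = 0.0485) and as the mean of its probes (1.24, adjusted p = 0.0331). Sod3 passed in 6 of 16, with adjusted p between 0.0120 without the second fibroblast array, where it differed by -1.98, and 0.0426. Gsta3, Gstm3, Nfe2l3 and Chac1 kept their call and direction under every alternative that gave a value. For Chac1 the direction was set by the filter on dim probes, so keeping it adds no support. The difference was 0.70 for Chac1 with normexp, whose offset shrinks the change of dim probes, and -1.38 for Nfe2l3 as the mean of its probes. The other called genes named here were less stable, with calls lost in 11 of 15 alternatives for Ggt1, 11 of 16 for Akr1a1, 10 for Sesn1, 9 for Tfrc, 7 for Prdx5, 6 each for Gss and Prdx2, 5 for Akr1b8, 2 for Aox1 and 7 of 15 for Ugt1a6a. Other processing of the same arrays ended calls too, such as quantile normalization for Ggt1 (0.0721), Akr1a1 (0.0778) and Prdx5 (0.069), and median scaling for Sesn1 (0.0844), given as adjusted p. Each of these genes also lost its call when at least 1 single array was left out, where the highest adjusted p was 0.0760 for Gss, 0.185 for Ggt1, 0.161 for Prdx5, 0.118 for Prdx2, 0.173 for Sesn1, 0.126 for Tfrc, 0.101 for Akr1b8, 0.193 for Akr1a1, 0.0652 for Ugt1a6a and 0.0696 for Aox1.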

How the data were processed

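Spot intensity values were deposited as written by Agilent Feature Extraction 12.0.3.1, per the file headers with background and spatial trend subtracted. The authors' table holds the same intensity times 1 constant per array, as a comparison of both showed. The log2 processed signal was centred on each array's 75th percentile. Accessions without versions were matched to RefSeq, which named 32989 of 56605 probes. A gene was read from its brightest probe on average, and a separate fit covered all probes. Testing required that 1 of the groups compared had both arrays well above background, and used limma 3.58.1 (R 4.3.3, two-sided), all 6 arrays in 1 fit, with 5.57 degrees of freedom including the prior. Members, lists and tests were chosen with earlier results of these data known. Of each list, the text names up to 2 called genes each way with the largest change, or the most changed where none was called. For the 3 widest-ranging members it names the 3 nearest profiles, without predicted genes and clones. Of the genes so selected, 1 is not reported here. Same-numbered samples did not deviate together (correlations 0.072, 0.045 and -0.009). Data were simulated for the comparison of sorted groups with 16005 genes, 50 of them changed at each size. Of genes changed 2-fold 0% were called, of 4-fold 26%, of 8-fold 44% and of 16-fold 68%. The changed genes were a far smaller share than the 17.2% called in the real comparison, and all groups had the same spread. The simulated shares therefore do not give the power of the real comparison. The number of arrays limits the precision.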

Additional observations from a re-analysis of the deposited data

How the results depend on the processing

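Across 16 alternatives in 3 comparisons, 355 of 429 member values kept direction and side of the threshold, 30 lost their call, 19 gained one and 25 changed sign, none of these called. Fits without 1 array assume that the lone array of its group varies like the others. The causes of the changes were not tested. Scaling moved the median of all genes: median scaling by 0.14, 0.27 and 0.40 and the authors' table by -0.41, -0.09 and -0.50 (myofibroblasts minus steady-state fibroblasts, steady-state fibroblasts minus homogenates, myofibroblasts minus homogenates). Quantile normalization moved it by 0.10 in the last. The share of called genes that were higher was 53.5%, 40.7% and 44.3%, against 64.6%, 50.6% and 64.9% with median scaling, 25.4%, 36.8% and 20.6% with the authors' table, and 54.2% in the last with normexp.

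Called members between the sorted groups numbered 1 (2 with the authors' table, 0 to 3 with 1 array left out), of steady-state fibroblasts against homogenates 4 (2 with only the 4 arrays compared, 0 to 4 with 1 left out) and of myofibroblasts against homogenates 2 (1 with the authors' table, 5 with only 4 arrays or with array weights, 0 to 5). Over all genes the counts were 2758 (1264 with only 4 arrays, 1737 with weights, 1030 to 5736 with 1 left out), 3392 (2114 above background on all 6 arrays, 1544 to 6158) and 4613 (7387 with only 4 arrays, 7541 with weights, 1837 to 7210). List genes numbered 23 (9 with only 4 arrays, 13 with weights, 7 to 44), 27 (8 to 52) and 37 (58 with only 4 arrays, 7 to 56). Gclc in steady-state fibroblasts also lost its call with median scaling (0.071) and with only 4 arrays (0.0549), Nqo1 there with no filter (0.055) and with only 4 arrays (0.0718), Gclc in myofibroblasts with median scaling (0.0757), and Srxn1 there with the authors' table (0.101), all adjusted p against homogenates.

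Between the sorted groups, signs turned for Gclc with normexp (-0.0018), quantile normalization (-0.012) and the authors' table (-0.41), Txnrd1 with the mean of both probes (-0.041) and Srxn1 with median scaling (0.015). In steady-state fibroblasts against homogenates they turned for Gclm with median scaling (0.24) and Txnrd1 with quantile normalization (-0.092). In myofibroblasts against homogenates they turned for Gclm with median scaling (0.18), Hmox1 with quantile normalization (-0.15) and the authors' table (-0.18), and the dimmer Txnrd1 probe with median scaling (0.23). With 1 array left out, differences between the sorted groups ran from -0.32 to 0.34 for Gclc, -0.41 to 0.0059 for Gclm, -0.32 to 0.068 for Srxn1, -0.62 to 0.10 for Nqo1 and -1.52 to 0.13 for the dimmer Txnrd1 probe. Those of steady-state fibroblasts against homogenates ran from -0.30 to 0.79 for Nfe2l2, -0.97 to 0.28 for Keap1, -0.23 to 0.18 for Gclm, -0.12 to 0.34 for Txnrd1 and -0.30 to 1.34 for its dimmer probe, which ran from -0.46 to 0.10 in myofibroblasts against homogenates. With the replicate number as a block, Hmox1 between the sorted groups had an adjusted p of 0.0211, 2233 genes were called, and Nqo1 in steady-state fibroblasts against homogenates lost its call (0.0601). Deviations of same-numbered samples were hardly correlated, which does not settle whether the numbers pair the samples. No other member call changed under the block.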

Other observations

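Against homogenates, 18 of 110 tested list genes were higher and 9 lower in steady-state fibroblasts, and 21 were higher and 16 lower in myofibroblasts, which share the homogenate arrays. These are 24.5% and 33.6% of the genes tested, beside 19.9% and 26.9% of all genes. Of all genes, 8.09% were called higher and 11.8% lower in steady-state fibroblasts, and 11.9% higher and 15% lower in myofibroblasts. In the list of superoxide and peroxide removal, 3 of 6 genes were higher and 0 lower in steady-state fibroblasts, namely Sod3 by 2.94 ± 0.38 (adjusted p = 0.00492) and the metallothioneins Mt2 by 2.53 ± 0.41 (adjusted p = 0.0104) and Mt1 by 1.89 ± 0.44 (adjusted p = 0.0361), the last 2 named after their values were seen. In myofibroblasts 2 of 6 were higher, Sod3 by 1.44 ± 0.38 (adjusted p = 0.0424) and Mt2 by 2.24 ± 0.41 (adjusted p = 0.0136). Of 20 detoxification and export genes, 6 were higher and 1 lower in steady-state fibroblasts, and 6 higher and 3 lower in myofibroblasts. Akr1b8 was higher by 2.02 ± 0.30 in steady-state fibroblasts (adjusted p = 0.00755) and by 3.71 ± 0.30 in myofibroblasts (adjusted p = 0.000893). Of the 9 genes of NADPH supply, 0 were called in any of the 3 comparisons.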
